A study of Mus musculus with 22 samples.

Results

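A set of 43 genes, of 11208 in the table, was higher at 6 h of E2F1 induction in starved mouse fibroblasts and back near its starting level at 12 h. The members were chosen on their own values, by differences between group means of log2(normalized count + 1). The E2F1 line at 6 h had to exceed its own 0 h by at least 1, which is at least 2-fold. At 12 h it had to lie less than 0.5 above 0 h, and at 6 h the empty-vector line had to lie less than 0.5 above its own 0 h, with no limit on falls. Of 970 genes that met the first condition, 953 also met the condition on the empty-vector line. Among these, 43 were the members, 228 were still up by 0.5 to 1 at 12 h, and 682 were still up by at least 1. The condition on the empty-vector line removed no gene that had met both of the others.

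The cells were NIH/3T3, an established mouse embryo fibroblast line. Each line held a stable insert switched on by doxycycline: E2F1 in one (the E2F1 line) and nothing in the other (the empty-vector or EV line). All cells were kept for 48 h in 0.25% serum. They were then given 500 ng/ml doxycycline or, in the EV line alone, 10% serum. The 22 RNA libraries formed 11 groups of 2: both lines at 0 h and after 2, 6 and 12 h of doxycycline, and serum-fed EV cells at the same 3 times. Libraries were polyA RNA, read in pairs. In such bulk samples fewer cells with a transcript and less of it per cell cannot be told apart. Serum was not given to the E2F1 line, so line and stimulus cannot be told apart between the E2F1 and serum courses. The labels do not say whether replicates were separate cultures, so every p-value measures the spread between these libraries, which may be technical. They also do not say whether a line was 1 clone.

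E2F1 is a transcription factor that is held inactive by the retinoblastoma protein in resting cells and, once released, switches on genes for the start of DNA replication. Resting fibroblasts that receive serum first raise immediate early and delayed early genes, which encode transcription factors, growth factors and signalling proteins. Genes of DNA replication follow later, when cells near S phase. The members are described by what their proteins do: 5 encode ligands or secreted proteins, 1 a receptor, 5 signalling enzymes or switches, and 10 proteins of transcription and chromatin. A further 4 act on RNA, 10 belong to metabolism, membranes and traffic, and 8 are of other or unplaced function.

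Library totals ran from 34014608 to 46057140 normalized counts, and the lowest mean of any gene was 99.6. The mouse E2f1 gene stood at 1703 and 1637 normalized counts at 0 h in the E2F1 line and at 1535 and 1755 at 2 h, which overlap. It was at 3806 and 3602 at 6 h and 2683 and 2845 at 12 h in that line, and at 4615 and 4247 at 12 h of serum in the EV line. Whether reads of the construct are counted here was not tested. All 11 of 11 fibroblast markers were in the table, with summed levels from 718897 to 1484689, whereas 0 of 5 immune, 0 of 4 epithelial and 0 of 4 endothelial markers were. The Y-linked gene Ddx3y was at 580 and 521 at 0 h in the E2F1 line, 329 and 316 at 2 h, 415 and 435 at 6 h and 546 and 446 at 12 h. In the EV line Ddx3y was at 9 and 4 at 0 h. It stood there at 103 and 71 at 2 h of doxycycline and 132 and 170 at 2 h of serum. The EV libraries of 2 h thus stand apart from the other EV libraries, and the E2F1 libraries of 2 h were the lowest of their line. Its part in the results below that use libraries of 2 h was not tested. The counts are also given with the EV 12 h doxycycline libraries, where it was 9 and 4, as the control. That control leaves the serum or E2F1 libraries of 2 h in the comparison.

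**Figure D1:**
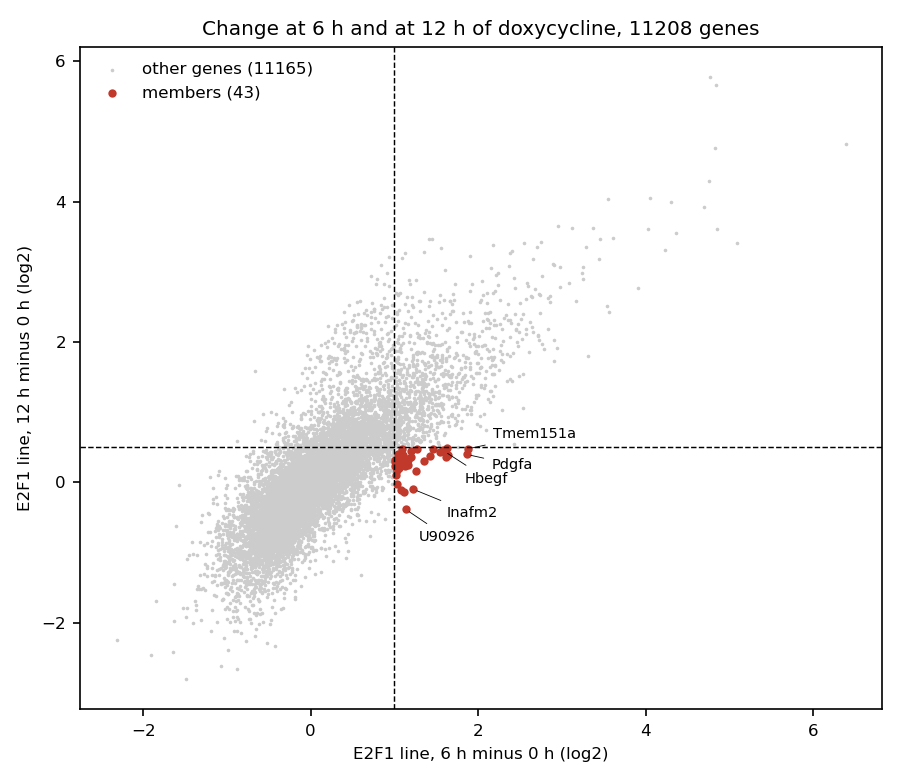
Change from 0 h in the E2F1 line at 6 h (horizontal) and at 12 h of doxycycline (vertical), in log2(normalized count + 1), with 1 point per gene. Dashed lines mark the limits of 1 and 0.5, the 43 members (red) lie to the right of the first and below the second, and most other genes beyond the first limit lie above the second.

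In the E2F1 line the members stood 1.00 to 1.88 above 0 h on the log2 scale at 6 h (median 1.11). At 12 h they stood -0.38 to 0.49 from 0 h (median 0.32). The median member kept 25.5% of its 6 h change at 12 h. These values follow from the choice of members and carry no test. The same holds for the calls and the order of libraries given next, which the choice also fixed and from which nothing is read. In these contrasts limma (adjusted p under 0.05) called 42 of the 43 higher and 0 lower at 6 h, where 28.8% of all genes were higher and 22.9% lower. It called 20 higher and 0 lower at 12 h, where 31.8% were higher and 29.7% lower. Between 6 and 12 h it called 40 lower and 0 higher, against 20.2% and 15.1% of all genes. In 42 of 43 members both 6 h libraries lay above all 4 libraries of 0 and 12 h, which held for 16.3% of all genes. The exception was U90926, a gene of low level, with 32 and 21 normalized counts at 6 h, 29 and 4 at 0 h and 7 and 10 at 12 h.

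The 0 and 12 h libraries were also used by the rule, so their order is a description. In 34 members both 12 h libraries were above both 0 h libraries, a pattern shown by 40.2% of all genes. In Msi1 both were below, which 41.1% of all genes showed, and in 8 members the libraries of the times overlapped. The 12 h limit cuts through a continuous range: 10 genes lay between 0.4 and 0.5 at 12 h, and 25 genes that met the other conditions lay between 0.5 and 0.6. Just inside were Rhoq at 0.487 and Stk39 at 0.482, and just outside were Klhl21 at 0.504 and Casc3 at 0.505. At the 6 h limit Fhdc1 (1.002) and Zfp703 (1.003) were inside and Anks6 (0.996) and Dnmt3a (0.993) outside. On the EV limit the nearest members were Tom1 at 0.469 and Inafm2 at 0.292.

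Membership also turned on the scaling and on single libraries. Under quantile normalization 17 of the 43 still met the rule and 20 other genes joined them. With every library scaled to the same total, 21 of the 43 did, and 6 others joined. Those that met it under both scalings were 14: Pdgfa, Inafm2, Hbegf, Rhoq, Lonrf1, Ago4, Mgat3, Ccdc6, Mier3, Zfp777, Ogfod2, Wnt9a, Cdca7 and Rbm14. Of 26 members lost under quantile normalization 20 had a 6 h change under 1 there, as had all 22 lost under equal totals. Both scalings moved the median 6 h change of all genes by -0.12. The E2F1 libraries totalled 37401882 and 36606142 normalized counts at 6 h, against 34043429 and 34201309 at 0 h. Leaving out E2F1 6 h replicate 2 gave 79 genes and leaving out E2F1 12 h replicate 1 gave 68. At 6 h replicate 1 was above replicate 2 in 37 of 43 members, compared with 58.3% of all genes.

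Promoter sequences were available for 35 members, in 41 windows from 250 bases before to 50 bases after an annotated start site (RefSeq, GRCm38.p6). The E2F-like motif TTTNNCGC, on either strand, was found in 5 of the 41 windows (12.2%), in Cdca7, Kctd15, Pdgfa, Rbm14 and Zfp777. N stands for any base, so a match need not be an E2F binding site. Read as TTTNNCGC, the bases at N were only C or G in Cdca7, Kctd15 and Pdgfa. They included an A in Rbm14 and a T in Zfp777. The shares that follow allow any base at N. The motif TTTNNCGC was found in 8.79% of the 11012 windows of all genes in the table and in 14.4% of the 679 windows of genes still up at 12 h. The following windows are shown because they carry a match to TTTNNCGC, or a CArG box (CC, 6 bases of A or T, and GG, the core of the serum response element), in 4 of the members described further on. Capitals mark the match, and each sequence is written in the direction of the gene.

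Pdgfa, chr5:138994232-138994531, minus strand: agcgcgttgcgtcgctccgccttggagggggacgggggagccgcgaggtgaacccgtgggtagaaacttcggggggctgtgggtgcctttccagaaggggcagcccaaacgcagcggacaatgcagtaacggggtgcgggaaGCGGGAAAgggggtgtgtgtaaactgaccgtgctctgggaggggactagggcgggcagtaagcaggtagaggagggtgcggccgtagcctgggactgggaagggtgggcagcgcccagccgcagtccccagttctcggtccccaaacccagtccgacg
Cdca7, chr2:72475969-72476268, plus strand: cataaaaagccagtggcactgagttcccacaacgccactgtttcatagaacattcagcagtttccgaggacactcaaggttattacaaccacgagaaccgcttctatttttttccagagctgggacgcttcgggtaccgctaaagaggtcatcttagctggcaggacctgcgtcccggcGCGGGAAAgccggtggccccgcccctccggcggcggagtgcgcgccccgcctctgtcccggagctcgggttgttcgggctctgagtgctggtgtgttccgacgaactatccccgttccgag
Rbm14, chr19:4811585-4811884, minus strand: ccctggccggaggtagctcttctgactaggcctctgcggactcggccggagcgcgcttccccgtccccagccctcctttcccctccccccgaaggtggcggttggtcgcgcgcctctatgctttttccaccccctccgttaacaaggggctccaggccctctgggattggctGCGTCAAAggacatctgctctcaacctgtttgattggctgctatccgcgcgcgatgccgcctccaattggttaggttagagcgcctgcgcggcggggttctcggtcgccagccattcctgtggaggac
Inafm2, chr2:118745508-118745807, plus strand: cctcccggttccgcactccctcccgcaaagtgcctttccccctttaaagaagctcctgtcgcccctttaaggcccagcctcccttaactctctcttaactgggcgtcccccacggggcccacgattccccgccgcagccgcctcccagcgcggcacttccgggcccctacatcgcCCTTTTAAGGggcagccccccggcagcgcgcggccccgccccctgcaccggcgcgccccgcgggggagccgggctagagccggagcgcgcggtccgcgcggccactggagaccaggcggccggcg

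The E2F-like matches began 108, 71 and 78 bases before the start site in Pdgfa, Cdca7 and Rbm14, and the CArG box of Inafm2 began 75 bases before it. Pdgfa has another annotated start site, whose window held no E2F-like match. A CArG box was found in 2 of 41 windows (4.88%; Inafm2 and Kctd15), where 1.25% of the windows of all genes in the table held one. The AP-1 motif TGANTCA was found in 2 windows (4.88%, against 4.71%; Tacc2 and Xpot), and 0 windows held the CRE motif TGACGTCA (3.21%) or the EGR motif GCGTGGGCG (1.28%). The SP1 motif GGGCGG was in 36 windows (87.8%, against 65.0%) and the CCAAT motif in 8 (19.5%, against 38.6%). Median GC content of the windows was 71.0% in the members, 65.7% in genes still up at 12 h and 61.3% in all genes, and a GC-rich motif such as GGGCGG occurs more often in such sequence. These are matches of letters in a fixed window, with no test.

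Among the ligands, Pdgfa, the A chain of platelet-derived growth factor, had the tallest pulse. It stood at 552 and 513 normalized counts at 0 h in the E2F1 line, 870 and 823 at 2 h, 1975 and 1910 at 6 h and 698 and 706 at 12 h. The 6 h mean was 3.64-fold the 0 h mean (log2 1.87, SE 0.12) and the 12 h mean 1.32-fold (log2 0.40, SE 0.12). The groups at 0, 2 and 6 h did not overlap, and the 12 h libraries lay between those of 0 and 2 h. In the EV line Pdgfa was at 504 and 532 at 0 h, 906 and 1042 at 2 h, 562 and 653 at 6 h and 589 and 492 at 12 h of doxycycline. Both EV libraries at 2 h were above both E2F1 libraries at 2 h, while at 6 h every E2F1 library was above every EV library.

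Serum gave Pdgfa its highest values, 6012 and 5764 at 2 h, followed by 2979 and 2437 at 6 h and 1574 and 1513 at 12 h. At 2 h of serum Pdgfa was 6.05-fold above EV doxycycline at 2 h (log2 2.60, SE 0.12, limma adjusted p 1.89e-12). Against EV doxycycline at 12 h this value was 3.45. It then fell by 1.13 on the log2 scale to 6 h (adjusted p 3.46e-07) and by 0.80 to 12 h (adjusted p 2.48e-05), and the serum groups did not overlap. At 12 h it was still 2.86-fold above EV doxycycline at 12 h (log2 1.52, adjusted p 2.12e-09). The gene spans chromosome 5, 138976014 to 138997370, on the minus strand (GRCm38), and overlaps 6330403L08Rik on the other strand.

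Hbegf encodes heparin-binding EGF-like growth factor, a ligand of the EGF receptor. In the E2F1 line it was at 653 and 546 at 0 h, 501 and 472 at 2 h, 2088 and 1561 at 6 h and 980 and 676 at 12 h. Both 6 h libraries were above all others of that line, both 2 h libraries were below those of 0 h, and the 12 h libraries differed by more than the 0 h ones. The 6 h mean was 3.02-fold that of 0 h (log2 1.59, SE 0.17). Under doxycycline alone the EV line held 377 to 504 normalized counts at 2, 6 and 12 h.

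At 2 h of serum Hbegf reached 19352 and 18561, the largest rise among members that were above 0 in the control: 48.4-fold over EV doxycycline (log2 5.60, SE 0.17, limma adjusted p 1.69e-14). It fell by 2.17 on the log2 scale between 2 and 6 h (adjusted p 1.04e-08), to 4526 and 3915. A further fall by 1.00 brought it to 2127 and 2081 at 12 h (adjusted p 0.000103), where it was 5.21-fold above EV doxycycline (adjusted p 6.72e-10). The higher E2F1 library at 6 h, at 2088, lay between the serum libraries of 12 h.

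Wnt9a, a Wnt ligand, went the other way in serum. In the E2F1 line it stood at 327 and 381 at 0 h, 563 and 441 at 2 h, 769 and 820 at 6 h and 488 and 397 at 12 h. Its EV level was 514 and 538 at 0 h and 677 and 655 at 12 h of doxycycline, so the E2F1 peak was only 0.51 above the EV line at 6 h on the log2 scale, the smallest such difference of any member. Serum held it at 174 and 273 at 2 h, 173 and 155 at 6 h and 138 and 115 at 12 h. Against EV doxycycline it was lower by a log2 difference of -1.04 at 2 h (SE 0.22, limma adjusted p 0.000365) and -2.39 at 12 h (adjusted p 2.05e-08), the largest fall of any member at 12 h.

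Vgf, the precursor of secreted neuropeptides that nerve growth factor induces, was at 111 and 118 at 0 h, 276 and 223 at 6 h and 158 and 121 at 12 h in the E2F1 line. In the EV line Vgf was at 142 and 221 at 0 h and 94 and 236 at 6 h of doxycycline, so the lines overlapped at 6 h. In serum it was at 1117 and 1108 at 2 h, 1874 and 871 at 6 h and 1036 and 802 at 12 h, and no fall between serum times passed the test. It was 9.68-fold above EV doxycycline at 2 h (log2 3.28, SE 0.38, adjusted p 4.16e-07) and 11-fold above it at 12 h (log2 3.45, adjusted p 2.1e-07; both limma). The fifth secreted protein, the kinase Pkdcc, stood at 1111 and 1169 at 0 h and 2325 and 2372 at 6 h in the E2F1 line. Plxnd1, a semaphorin receptor, went from 3428 and 3473 to 7124 and 6938, and at 12 h of serum it was lower than EV doxycycline by a log2 difference of -1.14 (limma adjusted p 7.96e-10).

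Of 12 listed growth factor ligands in the table, limma called 3 higher at 6 h in the E2F1 line (Hbegf, Pdgfa and Vegfa) and 2 lower (Nrg1 and Inhba), near the 28.8% and 22.9% of all genes. Their median log2 change was -0.03, the same as over all genes. In serum at 2 h 10 of the 12 were higher than in EV doxycycline and 1 was lower, where 35.0% and 32.1% of all genes were, with a median of 5.33 against 0.02 over all genes. From 2 to 6 h of serum 9 fell and 1, Fgf7, rose, against 24.3% of all genes in each direction. Vegfa, the angiogenic factor, was below the 6 h limit, with a log2 change of 0.63 at 6 h and -0.12 at 12 h. Ereg, a relative of Hbegf, changed by 0.09 at 6 h in the E2F1 line and was 5.94 higher at 2 h of serum.

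**Figure D2:**
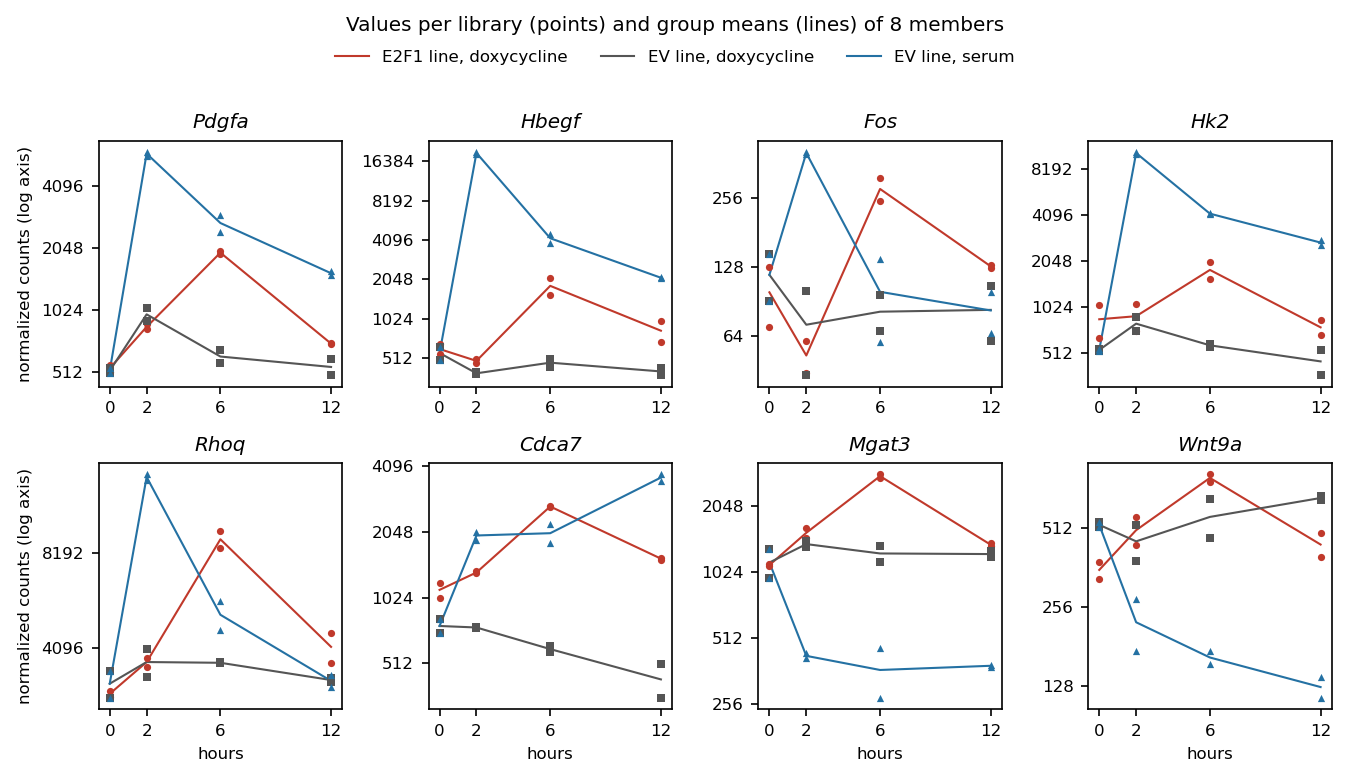
Normalized counts (log axis) of 8 members against hours of stimulus, with points for libraries and lines for group means of 2 libraries. Red circles are the E2F1 line under doxycycline, grey squares the EV line under doxycycline and blue triangles the EV line in serum. The red lines peak at 6 h, the blue lines of Pdgfa, Hbegf, Fos, Hk2 and Rhoq peak at 2 h, that of Cdca7 is highest at 12 h, and those of Mgat3 and Wnt9a fall below the start.

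Of the signalling members, Rhoq, a small GTPase, had the highest level per length at 6 h among members placed on the annotation. It stood at 2868 and 2993 at 0 h, 3572 and 3822 at 2 h, 9624 and 8539 at 6 h and 4588 and 3677 at 12 h in the E2F1 line. The 6 h mean was 3.09-fold that of 0 h (log2 1.63, SE 0.12), and every 12 h library was above every 0 h library. Divided by exonic length, the mean level was 706 normalized counts per kb at 0 h and 2190 at 6 h. Its EV libraries at 0 h and under doxycycline lay from 2844 to 4076.

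Rhoq had a short course in serum too. It was at 14613 and 14042 at 2 h, 4672 and 5781 at 6 h and 3082 and 3359 at 12 h. The rise at 2 h was 3.89-fold over EV doxycycline (log2 1.96, SE 0.12, limma adjusted p 1.6e-10) and the falls were -1.46 to 6 h (adjusted p 3.2e-08) and -0.69 to 12 h (adjusted p 0.000212) on the log2 scale. At 12 h its level was no longer called different from EV doxycycline, with a log2 difference of -0.01 (SE 0.12, adjusted p 0.945). The gene lies at chromosome 17, 86963082 to 87000069, and overlaps Pigf on the other strand.

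The other signalling members were Dusp7, a phosphatase of MAP kinases, the kinases Camkk1 (upstream of calmodulin-dependent kinases), Stk39 (a regulator of ion transport) and Hipk2 (a nuclear kinase). Their 6 h changes in the E2F1 line ran from 1.03 to 1.15 on the log2 scale. All of them were called higher at 2 h of serum than in EV doxycycline, where 35.0% of all genes were. Hipk2, at 1646 and 1708 at 0 h and 3792 and 3366 at 6 h in the E2F1 line, reached 7127 and 7120 at 2 h of serum (4.37-fold, log2 2.13, limma adjusted p 3.64e-10). Stk39 differed in its timing. It rose by 0.86 between 2 and 6 h of serum (adjusted p 4.71e-05), to 2717 and 2312, and at 12 h was 2.66-fold above EV doxycycline (adjusted p 4.35e-08).

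Feedback genes of the ERK pathway, mostly Dusp, Sprouty and Spred genes, gave no member from a list that did not hold Dusp7. As only 43 of all 11208 genes were members, nothing is read from this. Of 15 measured, 5 were called higher at 6 h in the E2F1 line, near the 28.8% of all genes, and 1 lower, below the 22.9% of all genes. Their median log2 change was -0.24 against -0.03 over all genes. At 2 h of serum 10 of the 15 were higher and 0 lower (35.0% and 32.1% of all genes), with a median of 2.32 against 0.02. Dusp14 had the largest change in the E2F1 line, 1.16 at 6 h, and stayed at 0.84 at 12 h. Dusp7, at 1744 and 1505 at 0 h, 3861 and 3331 at 6 h and 2163 and 1942 at 12 h, met the rule but was not on that list.

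Fos, which encodes the immediate early AP-1 subunit c-Fos, was a member of low level. It was at 128 and 70 at 0 h, 61 and 44 at 2 h, 312 and 247 at 6 h and 127 and 130 at 12 h in the E2F1 line. Both 6 h libraries were above all others of that line, both 2 h libraries below those of 0 h, and the 0 and 12 h libraries overlapped. The 6 h change was 1.54 (SE 0.45) on the log2 scale. In serum it was at 396 and 406 at 2 h and 139 and 60 at 6 h, a rise over EV doxycycline of 2.59 (SE 0.45, limma adjusted p 5.03e-05) and a fall by 2.12 (adjusted p 0.000715). The EV libraries at 2 h were at 43 and 100, and the rise was 1.99 without replicate 1 of them and 3.19 without replicate 2. The fall was -2.72 without serum 6 h replicate 1 and -1.52 without replicate 2, and all 4 of these values kept their call.

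Of 30 immediate early transcription factors measured, Fos included, limma called 10 higher and 4 lower at 6 h in the E2F1 line, where 28.8% of all genes were higher and 22.9% lower. At 12 h the counts were 4 and 13, where the shares of all genes were 31.8% and 29.7%. Fosb, a close relative of Fos, changed by 0.12 at 6 h, and Egr1 by 0.76 with -0.55 at 12 h. Junb changed by 0.42 at 6 h and -0.85 at 12 h. Nr4a3, Klf10, Klf4 and Nr4a2 were called higher at both times. The changes of Nr4a3 and Klf10 were 5.09 and 1.80 at 6 h and 3.41 and 0.88 at 12 h. Those of Klf4 and Nr4a2 were 1.04 and 1.03 at 6 h and 1.15 and 2.42 at 12 h. Klf4 rose by 0.99 at 6 h of doxycycline in the EV line too, where Nr4a3, Klf10 and Nr4a2 changed by 0.42, 0.19 and -0.26. Nr4a3 started from a low level, a mean of 3.25 on the log2 scale at 0 h in the E2F1 line. In serum 27 of the 30 were higher at 2 h than in EV doxycycline and 2, Jund and Egr1, were lower (35.0% and 32.1% of all genes). Between 2 and 6 h 26 fell and 0 rose, against 24.3% of all genes in each direction.

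Cdca7, a chromatin protein of the cell division cycle that is known as an E2F and MYC target, was at 1197 and 1023 at 0 h, 1319 and 1347 at 2 h, 2648 and 2691 at 6 h and 1557 and 1527 at 12 h in the E2F1 line. Its groups at 0, 2, 6 and 12 h did not overlap. The EV line had 703 and 815 at 0 h and 356 and 509 at 12 h of doxycycline. At 2 h of doxycycline Cdca7 was higher under E2F1 than in EV cells, which had 744 and 750 (log2 0.83, SE 0.14, limma adjusted p 0.00152). Against EV doxycycline at 12 h this difference was 1.64. The lines differed at 0 h too, by 0.55.

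Cdca7 had its highest serum values at 12 h, 3746 and 3496, after 1885 and 2050 at 2 h and 2216 and 1815 at 6 h. It rose by 0.85 between 6 and 12 h (SE 0.14, limma adjusted p 7.54e-05) and ended 8.48-fold above EV doxycycline (log2 3.08, adjusted p 4.88e-12). Cdca7 and Tmed8, a protein of vesicle traffic, were the members that rose at this step. At the same step 38 of 38 listed E2F targets of the G1/S transition rose from 6 to 12 h of serum, against 19.3% of all genes, with a median of 2.17. In the E2F1 line all 38 of them were called higher at 6 h and 35 at 12 h, where 28.8% and 31.8% of all genes were. From 6 to 12 h in that line 12 were called higher and 5 lower (Mcm2, Mcm6, E2f1, E2f3 and Ung), against 15.1% and 20.2% of all genes. Of the 38, 0 were members, from which nothing is read as only 43 of 11208 genes were. Ung had the largest 6 h mean over the higher of the 0 and 12 h means, 1.89 on the log2 scale, against 1.47 in Pdgfa. Of 36 genes where this height was at least 1, 16 were members.

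The remaining transcription and chromatin members had 6 h changes of 1.00 to 1.46 in the E2F1 line. They were the zinc finger proteins Zfp777 and Zfp703, Kctd15 (an inhibitor of AP-2 factors), Mier3 (a relative of a histone deacetylase cofactor), Bahd1 (a heterochromatin protein), Brd1 (a subunit of histone acetylase complexes), Rprd2 (which binds RNA polymerase II) and Rbm14 (a coactivator). Rbm14 was at 1495 and 1695 at 0 h, 3652 and 3667 at 6 h and 2441 and 1928 at 12 h. Of the 10 members of this group, Fos and Cdca7 included, 8 were higher at 2 h of serum than in EV doxycycline and 1 was lower, where 35.0% and 32.1% of all genes were. That 1 was Zfp703, at 678 and 919 against 1479 and 1621 (log2 -0.97, SE 0.16, limma adjusted p 2.45e-05). It rose by 1.09 from 2 to 6 h (adjusted p 1.59e-05) and fell by 0.74 from 6 to 12 h of serum (adjusted p 0.00104).

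The members that act on RNA were Ago4 (an Argonaute protein of small RNA silencing), Msi1 (an RNA-binding regulator of translation), Pusl1 (a pseudouridine synthase-like protein) and Xpot (the export receptor for tRNA). Ago4 was at 237 and 237 at 0 h, 547 and 592 at 6 h and 222 and 316 at 12 h in the E2F1 line. After 12 h in serum Ago4 was at 124 and 170, against 373 and 401 in EV doxycycline (log2 -1.41, SE 0.19, limma adjusted p 2.29e-06). Msi1 went from 241 and 250 at 0 h to 542 and 500 at 6 h and 226 and 231 at 12 h, below its start. Xpot was higher at both 2 and 12 h of serum, by 0.80 and 1.04, and Pusl1 by 1.20 and 0.91.

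Of the metabolic and membrane members, Hk2, the hexokinase that growth factors induce for glycolysis, was at 1061 and 636 at 0 h, 714 and 1064 at 2 h, 2028 and 1553 at 6 h and 837 and 665 at 12 h in the E2F1 line. The libraries of 0, 2 and 12 h overlapped and both 6 h libraries were above them. Serum at 2 h brought Hk2 to 10297 and 10705, which is 13.3-fold over EV doxycycline (log2 3.73, SE 0.22, limma adjusted p 6.92e-11), or 4.57 on the log2 scale against EV doxycycline at 12 h. It fell by 1.32 to 6 h (adjusted p 7.81e-05) and by 0.63 to 12 h (adjusted p 0.0286), where it was still 6.14-fold above EV doxycycline (adjusted p 7.26e-09).

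Mgat3, the enzyme that adds the bisecting N-acetylglucosamine to N-glycans, had a pulse in the E2F1 line and low values in serum. It was at 1109 and 1094 at 0 h, 1631 and 1464 at 2 h, 2865 and 2756 at 6 h and 1344 and 1385 at 12 h, with no overlap between any of these groups. In serum it was at 435 and 412 at 2 h, 458 and 272 at 6 h and 385 and 378 at 12 h. The difference from EV doxycycline was -1.70 at 2 h (SE 0.17, limma adjusted p 1.03e-07) and -1.69 at 12 h (adjusted p 1.06e-07) on the log2 scale. Mgat3, Ogfod2, Wnt9a and Zfp703 were the 4 members lower than EV doxycycline at both 2 and 12 h of serum. The share of all genes lower at both times was not counted.

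The others of this group were Tmem151a, Reep6, Inafm2, Slc27a4, Zdhhc8, Tmed8, Tom1 and Tmem263. Tmem151a, a membrane protein, went from 129 and 174 at 0 h to 561 and 550 at 6 h and 215 and 204 at 12 h in the E2F1 line, the largest 6 h change of any member (3.69-fold). Reep6, a shaper of the endoplasmic reticulum, went from 118 and 98 to 338 and 324 and back to 115 and 166. Inafm2 ended at 775 and 815 at 12 h, after 2020 and 1947 at 6 h and 941 and 766 at 0 h. Tmem263 peaked at 6 h in serum as well, at 6914 and 8673, and fell by 1.11 to 12 h, the largest fall of any member at that step (SE 0.11, limma adjusted p 4.68e-07).

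Among the members of other function, Lonrf1, a ring finger protein with a LON domain, was at 363 and 384 at 0 h, 1278 and 986 at 6 h and 540 and 488 at 12 h in the E2F1 line. It was 3.03-fold above EV doxycycline at 2 h of serum (log2 1.60, limma adjusted p 3.27e-07) and fell by 2.05 to 6 h (SE 0.18, adjusted p 5.59e-08). Its 12 h serum libraries were below EV doxycycline, at 268 and 293 against 605 and 532 (log2 -1.02, adjusted p 6.62e-05). Ccdc6, Lrrc58, Fhdc1 (a formin-like protein) and Tacc2 (a centrosomal coiled-coil protein) were higher at 2 h of serum and fell at each later step. Ogfod2 was lower in serum. Gm5884 is annotated as a processed pseudogene, at 153 and 145 at 0 h and 446 and 485 at 6 h, and reads may be shared with its parent gene, so its value is uncertain.

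U90926 was listed at 0 in both EV libraries at 2 h and at 12 h of doxycycline, and at 2 and 10 at 6 h. In serum it was at 58 and 82 at 2 h, 746 and 432 at 6 h and 2034 and 763 at 12 h. It was at 4 to 32 in the E2F1 line. As its libraries outside serum were all at 32 or below, and the lowest mean of any gene in the table was 99.6, it is in the table through its serum values, and its calls in serum are no support for a rise there. No fold is given for the groups listed at 0.

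**Figure D3:**
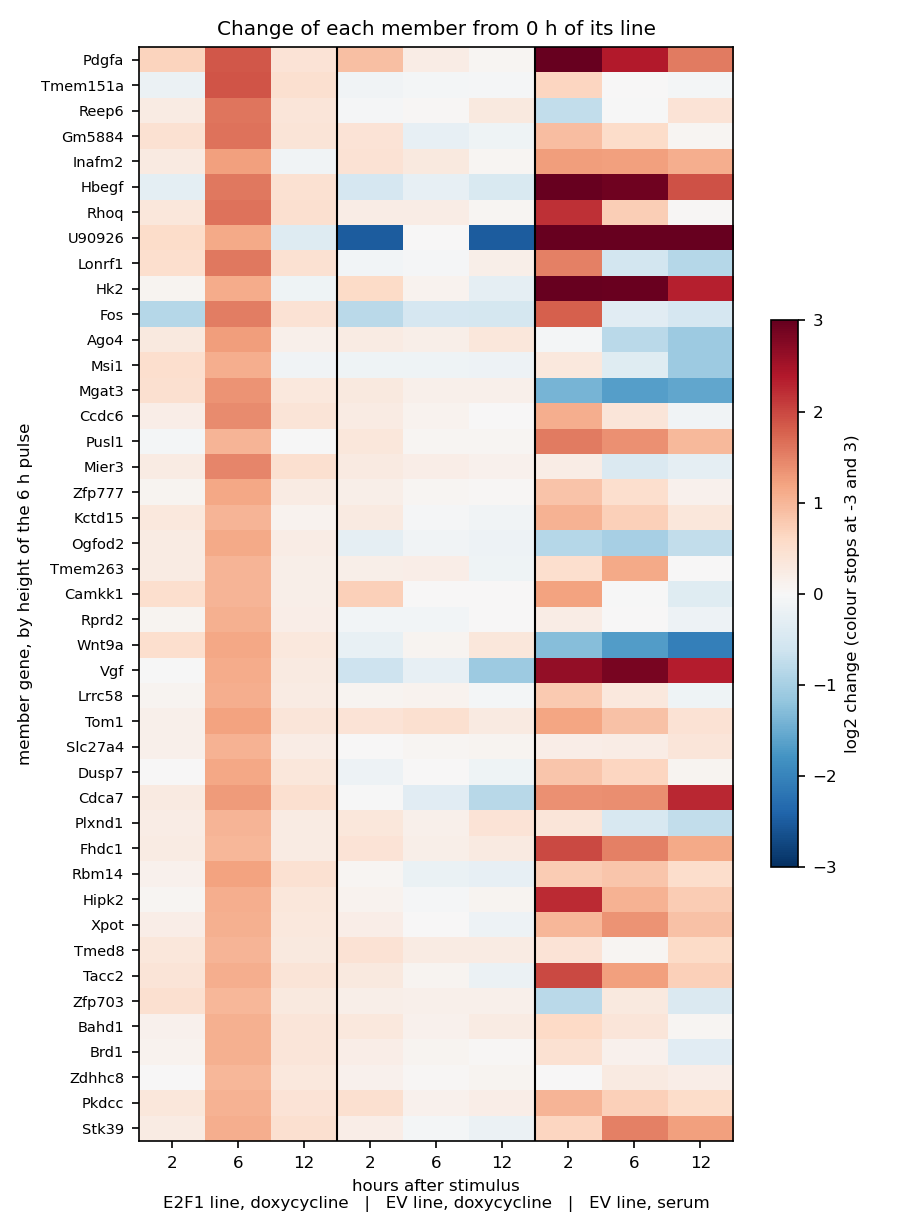
Log2 change of each of the 43 members (rows, by height of the 6 h pulse) from 0 h of the same line, at 2, 6 and 12 h of each stimulus (columns). Red is higher and blue lower, with colours that stop at -3 and 3. The E2F1 column at 6 h is red in every row because of the rule, and the serum columns range from deep red for Pdgfa, Hbegf, Hk2 and Vgf to blue for Mgat3 and Wnt9a.

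The serum libraries and the EV doxycycline libraries of 2 and 12 h, which the rule did not use, were then compared over all 43 members. The counts include U90926, which is in the table through its serum values. At 2 h of serum 31 members were higher and 5 lower than at 2 h of EV doxycycline, where 35.0% of all genes were higher and 32.1% lower. That is 72.1% and 11.6% of the members, and their median log2 difference was 0.69 against 0.02 over all genes. Of the 682 genes still up by at least 1 at 12 h of E2F1, 38.9% were higher and 28.6% lower, with a median of 0.13. With EV doxycycline at 12 h as the control the members gave the same counts, 31 and 5. Of all 11208 genes 4440 were then higher and 3798 lower, compared with 3927 and 3596 in the main fit. Under equal totals, which moved the median of all genes by -0.39, 21 members were higher and 10 lower. Of all genes 2114 were then higher and 6050 lower.

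Between 2 and 6 h of serum 21 members fell, 7 rose and the others did not pass the test, where 24.3% of all genes fell and 24.3% rose, with a median of -0.34 against -0.00. Among the 682 genes still up at 12 h of E2F1, 29.8% fell and 17.2% rose. Of the 31 members higher at 2 h, 17 fell to 6 h, and 13 of these fell again to 12 h: Pdgfa, Hbegf, Rhoq, Hk2, Msi1, Ccdc6, Zfp777, Kctd15, Camkk1, Lrrc58, Fhdc1, Tacc2 and Brd1. The share of all genes with such a course was not counted. The rise at 2 h and the fall to 6 h also use the same serum 2 h libraries, so nothing is read from these joint counts. Under equal totals, which moved the median of all genes by 0.16, 16 members fell and 7 rose. Of all 11208 genes 1793 then fell and 4077 rose. Zfp703, Stk39 and U90926 had the largest rises.

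From 6 to 12 h of serum 21 members fell and 2 rose, where 20.6% of all genes fell and 19.3% rose. The median was -0.35 in the members and 0.53 in the 682 genes still up at 12 h of E2F1, of which 59.1% rose and 5.57% fell. In none of these libraries was Ddx3y above 48. With equal totals, which moved the median by 0.13, 12 members fell and 2 rose, where 1392 of all 11208 genes fell and 3184 rose. When only the groups compared were fitted 11 members fell, where 1530 of all genes did.

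At 12 h of serum 18 members were higher and 11 lower than EV doxycycline at 12 h, near the shares of all genes (37.9% and 32.5%), with a median of 0.14 against 0.03. Among the 682 genes 75.2% were higher and 8.50% lower. Of the 31 members higher at 2 h, 16 were higher at 12 h as well, and 4, Lonrf1, Msi1, Camkk1 and Brd1, were then lower. The share of all genes was not counted for these joint calls, and nothing is read from them. Over the serum groups and EV 0 h, a group that the rule used, the highest mean was at 2 h in 27 of the 43 members, at 6 h in 7, at 12 h in 5 and at 0 h in 4. The shares of all genes were 29.2%, 16.2%, 22.4% and 32.2%, and 391 of the 682 genes still up at 12 h of E2F1 were highest at 12 h of serum.

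**Figure D4:**
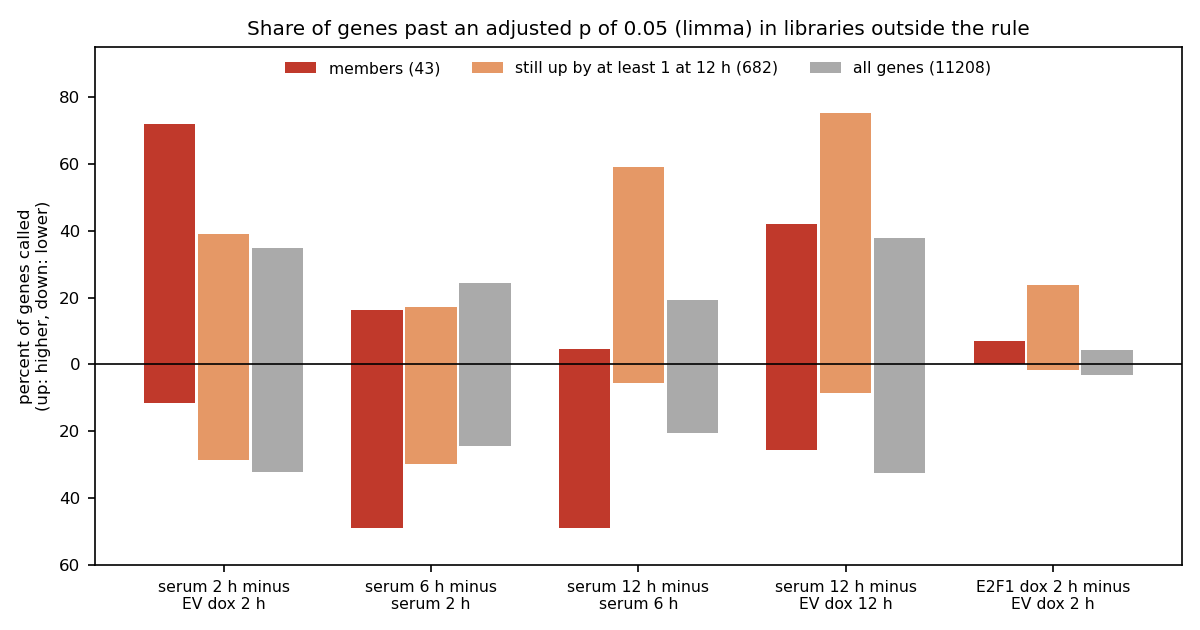
Percent of genes past a limma adjusted p of 0.05, higher (upward bars) and lower (downward bars), in 5 comparisons of libraries that the rule did not use. Red bars are the 43 members, orange the 682 genes still up by at least 1 at 12 h of E2F1 and grey all 11208 genes. The red upward bar is 72.1% at 2 h of serum and 4.65% from 6 to 12 h, where the orange bar is 59.1%.

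At 2 h the lines were compared before the pulse. Against EV doxycycline at 2 h, 3 members were higher in the E2F1 line (U90926, Cdca7 and Fhdc1) and 0 lower, near the 4.25% and 3.24% of all genes. U90926 was listed at 0 in the control. Among the 682 genes 23.8% were higher. Fhdc1 differed by 0.41 (SE 0.12, limma adjusted p 0.0433), with 1431 and 1284 against 1039 and 998, and lost its call in each fit without 1 of the 4 libraries. The lines differed in Fhdc1 before doxycycline too, by 0.58 at 0 h. From 0 to 2 h it rose by 0.25 in the E2F1 line and by 0.42 in the EV line. Without 1 of the 4 libraries 1 or 2 members were called. With EV doxycycline at 12 h as the control 14 members were higher and 0 lower, where 2666 of all 11208 genes were higher and 1911 lower. All calls rose from 839 to 4577, and this contrast also sets 2 h against 12 h of doxycycline. Within the E2F1 line 31 members had both 2 h libraries above both 0 h libraries, which 27.3% of all genes showed, and Hbegf and Fos had both below, which 23.1% showed. The 2 h changes ran from -0.86 in Fos to 0.67 in Pdgfa (median 0.24) and were above 0 in 37 of the 43 members. In the EV line the changes from 0 h to 2 h of doxycycline had a median of 0.19 and were above 0 in 30 members. Over all 11208 genes the median was 0.02 in both lines, with 5942 genes above 0 in the E2F1 line and 5984 in the EV line. These last values share the 0 h libraries with the rule and carry no test.

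The authors' deposited tables of changes against 0 h list genes with an absolute log2 fold change of about 2 or more, and they list 0 members at any time of doxycycline in either line. For serum, the authors' deposited table for 2 h lists 7 members: Pdgfa (3.52), Hbegf (5.10), Rhoq (2.20), U90926 (4.02), Hk2 (4.31), Vgf (2.66) and Hipk2 (2.24), as log2 fold changes. The authors' deposited table for 6 h lists 5 (Pdgfa, Hbegf, U90926, Hk2 and Vgf) and that for 12 h lists 5, of which Wnt9a, at -2.03, is the one with a fall.

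In the annotation, 41 members were matched protein-coding genes, with a median of 7 exons against 10 over all such genes in the table. Their median gene length was 23066 bases, against 24745. The heptamer TATTTAT, the core of AU-rich elements that shorten mRNA half-life, occurred in the 3' UTR of 17 of the 41 (41.5%, against 31.5% of all), and at least 2 times in 9 of the 41 against 11.4% of all. Fos, Hbegf and Hk2 held 2 each. The median 3' UTR was longer in the members, at 1789 against 1433 bases, and per kb of 3' UTR the heptamer occurred 0.308 times against 0.267. Of 42 members placed on the annotation, 19 overlap another annotated gene, among them Pdgfa, Rhoq, Hk2, Hipk2, Tacc2 and Ago4, and whether counting used strand is not given in the sources used here.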

How the data were processed

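RNA of the 22 libraries was counted and scaled by the submitters, whose processing notes name FastQC, Trimmomatic, HISAT2, featureCounts, DESeq2 and build mm10. The deposited values are normalized counts rounded to whole numbers, treated here as a score and not as raw counts. The authors' deposited tables give log2 fold changes and adjusted p-values. The members and the gene lists were chosen with earlier results of these data known.

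Values were analysed as log2(value + 1), a scale that understates changes of low genes. limma 3.58.1 (R 4.3.3) fitted a mean for each of 11 groups to all 22 libraries, with a mean-variance trend and 11 residual degrees of freedom. P-values were two-sided and adjusted by Benjamini-Hochberg over 11208 genes (threshold 0.05). The 5 tested comparisons contrast no group of the rule. The spread behind their p-values was estimated over all 11 groups, those of the rule included. The code was tested on simulated data. Depth in reads is unknown.

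Genes were named by a rule: up to 25 members with the tallest pulse and a 6 h mean of at least 100, members in a gene list, neighbours of each limit, and up to 3 rises and 3 falls per comparison. Other genes were named after their values were seen. Positions are from GRCm38 with GENCODE M21, where 10977 of 11208 identifiers matched. Roles are background knowledge. Python 3.11.15 and matplotlib 3.10.9 made tables and figures. Alternatives were a pseudocount of 8, quantile normalization, equal totals, a filter (at least 10 in 2 libraries, which removed none), a block on replicate number, fits of the compared groups alone, a 2-fold minimum, leaving out each library, and, chosen after seeing the data, the EV 12 h control.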

Additional observations from a re-analysis of the deposited data

How the results depend on the processing

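With a pseudocount of 8 there were 40 members, with quantile normalization 37 and with equal totals 27. Leaving out a library gave 37 to 79, and 14 members met the rule under all 10 such fits. With at least a 2-fold change, calls fell to 2600 at 2 h of serum against EV doxycycline (members 13 higher, 2 lower), 1173 from 2 to 6 h (2 and 8), 840 from 6 to 12 h (0 and 2), 2748 at 12 h against EV doxycycline (9 and 5) and 111 between the lines at 2 h (1 higher). Equal totals gave 10 members lower at 2 h of serum and 12 lower from 6 to 12 h. It split all calls into 2114 higher and 6050 lower at 2 h (main 3927 and 3596), 4077 and 1793 from 2 to 6 h (main 2722 and 2718) and 3184 and 1392 from 6 to 12 h (main 2164 and 2308). Only the groups compared gave 4 members higher from 2 to 6 h, 11 lower from 6 to 12 h and 1725 calls between the lines at 2 h. EV doxycycline at 12 h as the control for the E2F1 line at 2 h was chosen after seeing the data. It gave 4577 calls, 2666 higher and 1911 lower, with 14 members higher and 0 lower. The causes were not tested.

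Without 1 library of a comparison, 6577 to 6856 genes were called at 2 h of serum (members 26 to 29 higher, 4 to 5 lower), 4362 to 4739 from 2 to 6 h (3 to 5 and 17 to 24), 3414 to 4077 from 6 to 12 h (2 to 4 and 13 to 18), 7028 to 7218 at 12 h (15 to 18 and 10 to 11) and 122 to 283 between the lines at 2 h (1 to 2 and 0). In these fits the lone library is assumed to vary like the other groups. Of the values for single members, 463 kept direction and call and 4, all Fhdc1 between the lines at 2 h, lost the call. The replicate number as a block changed no member count: it gave 7630, 5566, 4603, 7976 and 962 calls against 7523, 5440, 4472, 7891 and 839. The labels do not say that a number marks a shared batch, and deviations of same-numbered libraries correlated from -0.09 to 0.19 in the 5 comparisons. With 2 libraries a group, changes within the spread of these libraries cannot be seen, and genes of low level are outside the table.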

Other observations

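The lists of G2/M genes, p53 targets and E2F1-linked apoptosis genes held 0 members. As only 43 of all 11208 genes were members, nothing is read from a count of 0 in lists of this size. In the E2F1 line 28.8% of all genes were called higher and 22.9% lower by limma at 6 h, and 31.8% and 29.7% at 12 h. Of 25 measured G2/M genes 7 were higher at 6 h, near that share, and 25 at 12 h. Of 20 p53 targets, 3 were higher and 5 lower at 6 h, near or below those shares, and the counts at 12 h were 10 and 4. Of 15 apoptosis genes, 7 were higher and 0 lower at 6 h, with 9 and 4 at 12 h.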
